A study of Mus musculus with 2 samples.

Results

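The genes described here are 49 precursors of minor neuropeptides and peptide hormones, chosen by symbol from lists of known peptide genes, among 23537 gene symbols in the expression tables. All 49 had a row of their own in both tables. The libraries came from mouse small-intestinal organoids, which are gel cultures of gut epithelium grown from crypts of the reporter strain ChgA-GFP, in medium with epidermal growth factor, noggin and R-spondin. Green fluorescent protein (GFP) in this strain reports on chromogranin A, a granule protein of enteroendocrine cells. The GFP+ library was made from the fluorescent cells, which were about 1% of the epithelial cells, and the GFP- library from the remaining cells of the same sort. There was 1 library of each. *Chga* itself is among 5 rows with no estimate in GFP+, where too many fragments were recorded, so the reporter gene cannot be compared. The sources used here do not state the age or sex of the mice, or how many mice or cultures went into a library.

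Peptide hormones are made as larger precursors that enter the secretory pathway, where convertases cut them at pairs of basic residues and other enzymes trim and amidate the ends. The finished peptides are stored in granules and act on receptors at the cell surface. In the gut they are made by single enteroendocrine cells, by enteric neurons and, for the guanylins, by much of the surface epithelium. Enterochromaffin cells, the serotonin-producing enteroendocrine cells, are rich in chromogranin A and the main target of such a reporter.

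Levels are FPKM as deposited, that is fragments counted on a transcript per kilobase of its length and scaled to the size of the library. With 1 library per fraction no difference has a replicate check, an error or a p-value. Differences are log2((FPKM + 1) in GFP+ / (FPKM + 1) in GFP-), which understates the change of low genes, and a difference of at least 2 (4-fold) in either direction is used as a rule of size. In bulk RNA, fewer cells of a type and less RNA per cell cannot be told apart.

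The coding sequences that follow are shown for *Guca2a* and *Penk*, which passed the size rule, and for *Guca2b*, the relative and neighbour of *Guca2a*. The last 45 coding bases of *Guca2a* (GRCm38 chr4:119639228-119639272, plus strand) and of *Guca2b* (chr4:119656795-119656839, minus strand), from the GENCODE M21 transcripts, encode the carboxyl ends of guanylin and uroguanylin, with cysteine codons in capitals.
Guca2a: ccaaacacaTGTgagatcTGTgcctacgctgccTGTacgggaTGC
Guca2b: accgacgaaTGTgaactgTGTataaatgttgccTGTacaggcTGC
All 4 cysteine codons stand at the same positions in both genes, and 29 of the 45 bases are identical. The stretch of *Penk* from codon 81 to codon 140 (GRCm38 chr4:4134226-4134405, minus strand) holds 3 copies of the Met-enkephalin codons, in capitals.
Penk: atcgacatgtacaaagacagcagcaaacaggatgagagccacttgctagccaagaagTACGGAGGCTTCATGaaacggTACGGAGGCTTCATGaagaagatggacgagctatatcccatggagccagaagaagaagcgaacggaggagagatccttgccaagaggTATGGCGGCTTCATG
Over its 268 codons *Penk* encodes 6 Met-enkephalin copies and 1 Leu-enkephalin copy, and all 7 follow a pair of basic codons, where convertases cut.

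The 200 bases before the listed start are shown for *Cartpt* and *Gast*, which were at least 4-fold higher in GFP+ cells, for *Guca2a* and *Nts*, which were at least 4-fold lower, and for *Guca2b*, the neighbour of *Guca2a*. The same window of *Nmb*, also at least 4-fold higher, held none of the motifs searched and is not shown. The windows come from RefSeq on GRCm38.p6, whose promoter table matched 38 of the 49 symbols. Capitals mark 3 motifs, searched on both strands and chosen with the sequences in view: TATAA, the core of the TATA box, TGACGTCA, the cAMP response element, and GATAA, the core of GATA factor sites.
Cartpt (chr13:99900684-99900883, minus strand): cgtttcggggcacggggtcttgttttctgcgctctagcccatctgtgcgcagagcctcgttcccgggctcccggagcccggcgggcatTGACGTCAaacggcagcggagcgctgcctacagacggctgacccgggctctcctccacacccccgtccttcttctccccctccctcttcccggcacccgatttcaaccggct
Gast (chr11:100334207-100334406, plus strand): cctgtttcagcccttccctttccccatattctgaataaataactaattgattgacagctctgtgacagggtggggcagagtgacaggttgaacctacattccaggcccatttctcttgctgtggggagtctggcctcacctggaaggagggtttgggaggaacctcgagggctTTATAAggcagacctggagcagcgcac
Guca2a (chr4:119637532-119637731, plus strand): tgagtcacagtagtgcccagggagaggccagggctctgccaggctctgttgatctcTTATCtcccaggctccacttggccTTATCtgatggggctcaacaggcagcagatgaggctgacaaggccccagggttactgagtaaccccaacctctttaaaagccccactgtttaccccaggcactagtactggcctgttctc
Guca2b (chr4:119658946-119659145, minus strand): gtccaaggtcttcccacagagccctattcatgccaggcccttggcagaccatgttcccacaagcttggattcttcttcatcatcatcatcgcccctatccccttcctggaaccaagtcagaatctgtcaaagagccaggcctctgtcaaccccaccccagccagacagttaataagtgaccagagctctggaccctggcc
Nts (chr10:102490419-102490618, minus strand): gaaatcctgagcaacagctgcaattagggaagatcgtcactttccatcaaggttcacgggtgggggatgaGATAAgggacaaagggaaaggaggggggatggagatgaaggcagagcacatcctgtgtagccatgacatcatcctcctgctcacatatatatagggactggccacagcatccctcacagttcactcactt
The cAMP response element of *Cartpt* begins 112 bases before the listed start, and 1.47% of the 32851 promoters in the table hold that motif in the same window. GATAA matched at 2 places in *Guca2a*, at 1 in *Nts* and at none in *Guca2b*, against 18.1% of all promoters, and TATAA matched in *Gast*, at 2 overlapping places on opposite strands, against 18.5%. A match is a description of these letters and not of a bound site.

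Of the 49 precursors, 16 reached 1 FPKM in at least 1 library, 21 lay above 0 and below 1 FPKM in the higher library, and 12 were listed at 0 in both. Thus 32.7% of the precursors reached 1 FPKM, against 50.4% of the 23532 symbols with an estimate in both libraries, and 24.5% were at 0 in both, against 23.8%. In the GFP+ library 15 precursors reached 1 FPKM and in the GFP- library 12, with 11 of them in both. By the value in the higher library, *Apln*, at 1.35 FPKM in GFP+ and 1.30 in GFP-, lay just inside the threshold, and *Calcb* and *Agrp*, at 0.927 and 0.859 FPKM in GFP+, lay just outside. The summed level of all 49 was 219 FPKM in GFP+ cells, against 471 FPKM in GFP- cells. The guanylins made up 42.2% of that sum in GFP+ and 84.4% in GFP-, and without them the sums were 126 FPKM in GFP+ cells, against 73.3 FPKM in GFP- cells. Over all 23532 symbols the sum was 407210 FPKM in GFP+ and 626177 FPKM in GFP-. Sums of lists, here and further on, are as deposited and not corrected for that gap.

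*Cartpt*, *Gast*, *Penk* and *Nmb* passed the size rule as higher in GFP+ cells, and *Guca2a* and *Nts* passed it as lower. These 4 higher genes were 25% of the 16 precursors above the filter, against 7.09% of the 11868 genes that passed the filter of 1 FPKM, and the 2 lower genes were 12.5%, against 4.59%. All 4 higher genes stayed under 1 FPKM in GFP-, and *Nts* was below it in GFP+, so that each passed the filter through 1 library, which fixes the sign of its difference. *Guca2a* was the one gene of the 6 that reached 1 FPKM in both. The median difference of the 16 was -0.10, against -0.12 for all genes tested. The deposited lower bound was 0 in both libraries for all 49 precursors, so that the deposited intervals of the 2 libraries overlapped for each.

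**Figure D1:**
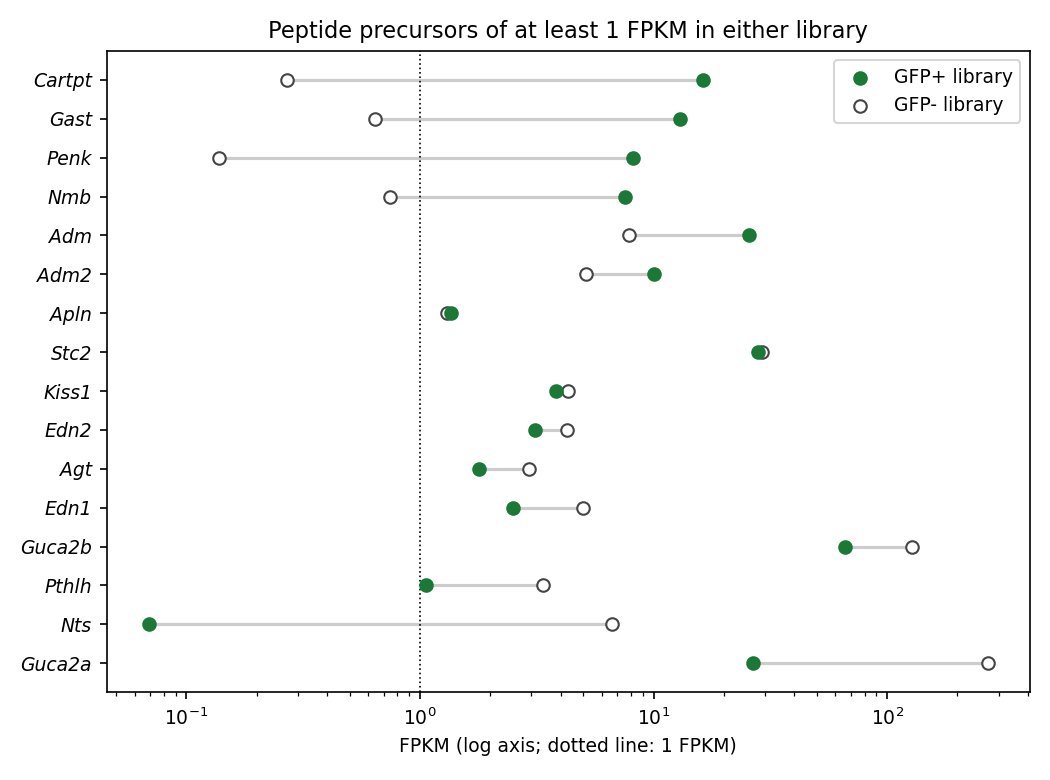
FPKM (log axis) of the 16 precursors of at least 1 FPKM in either library, ordered by their log2 difference, with 1 value per library (filled, GFP+; open, GFP-) and no replicates. *Cartpt*, *Gast*, *Penk* and *Nmb* lie right of 1 FPKM in GFP+ and left of it in GFP-, and *Guca2a* and *Nts* show the reverse order of their points.

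The guanylins, small peptides secreted into the gut lumen that act on guanylate cyclase C and so on chloride and fluid secretion, gave the highest precursor of each library, *Guca2b* in GFP+ and *Guca2a* in GFP-. *Guca2a* (guanylin, chromosome 4, 119637732 to 119639465) was at 26.5 FPKM in GFP+ cells, against 270 FPKM in GFP- cells, with deposited upper bounds of 64.0 and 581 FPKM. Its log2 difference was -3.30 and its GFP- to GFP+ ratio 10.2, and it ranked 3574 of 23532 symbols in GFP+ and 379 in GFP-. *Guca2b* (uroguanylin), whose listed locus is 17137 bases from that of *Guca2a*, was at 65.8 FPKM in GFP+ cells, against 128 FPKM in GFP- cells. Its difference of -0.95 did not pass the size rule. Beside these values, markers of enterocytes and goblet cells, known sources of guanylins, were also lower in part: 3 of 10 enterocyte genes were at least 4-fold lower, with a summed level of 1852 FPKM in GFP+ cells, against 3848 FPKM in GFP- cells, and 0 of 10 under either other scaling described further on. Of 9 goblet cell genes of at least 1 FPKM, 3 were at least 4-fold lower, with sums of 1363 and 3212 FPKM in GFP+ and GFP-. As deposited, 4 of the 10 enterocyte genes and 2 of the 9 goblet cell genes had the higher value in GFP+. Most of the gap between the enterocyte sums came from *Fabp1*, at 470 FPKM in GFP+ cells, against 2157 FPKM in GFP- cells. No marker of either list was at 0 in either library and none was at least 4-fold higher. The part of these cells in the *Guca2a* result was not tested.

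*Cartpt*, the precursor of the CART feeding peptide of brain and enteric neurons (chromosome 13, 99898483 to 99900683), was at 16.2 FPKM in GFP+ cells, against 0.269 FPKM in GFP- cells. Its ratio of 60.2 and its log2 difference of 3.76 were the highest of the 16. The low value in GFP- corresponded to about 16 fragments, by the stepwise spacing of low values explained in the account of the processing, with an exact Poisson 95% interval of 9.15 to 26.0 that covers counting error only. Since amplified fragments are not independent molecules, the true uncertainty is wider.

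*Penk*, the enkephalin precursor shown with its repeated opioid codons (chromosome 4, 4133536 to 4138445), was at 8.14 FPKM in GFP+ cells, against 0.137 FPKM in GFP- cells, a ratio of 59.2. About 609 fragments lay behind the GFP+ value and about 10 behind the GFP- value, with a Poisson interval of 4.80 to 18.4 for the GFP- count. The other opioid-family precursors did not reach 1 FPKM. *Pomc*, which encodes melanocortins and beta-endorphin, was at 0.530 FPKM in GFP+ cells, against 0.149 FPKM in GFP- cells. *Pnoc*, which encodes nociceptin, was at 0.128 FPKM in GFP+ cells, against 0.00857 FPKM in GFP- cells. *Pdyn*, the dynorphin precursor, was at 0.0613 FPKM in GFP+ and listed at 0 in GFP-. All 4 members of the opioid family had the higher value in GFP+, but genes below 1 FPKM leaned to GFP+ in general. Among 4758 such genes the Poisson intervals lay apart for 27% with GFP+ higher and for 8.49% with GFP- higher. The intervals of *Pdyn*, at about 8 fragments in GFP+ and 0 in GFP-, overlapped. *Penk* alone passed the size rule, which the others, below 1 FPKM in both libraries, could not reach.

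*Gast*, which encodes gastrin and lies on chromosome 11 (100334412 to 100336996), was at 13.0 FPKM in GFP+ cells, against 0.639 FPKM in GFP- cells, a ratio of 20.4 and a difference of 3.10. Its transcript is 460 bases long, so that only about 7 fragments (interval 2.81 to 14.4) lay behind the GFP- value and about 150 behind the GFP+ value. The other members of this group, hormones of colon and islet, were at or near 0. *Insl5*, a hormone of colonic L cells, was listed at 0 in GFP+ and was at 0.0766 FPKM in GFP-, and *Ppy*, pancreatic polypeptide, was listed at 0 in both.

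*Nmb*, the precursor of the bombesin-like peptide neuromedin B (chromosome 7, 80902227 to 80905062), was at 7.52 FPKM in GFP+ cells, against 0.743 FPKM in GFP- cells, a ratio of 10.1 and a difference of 2.29. *Nts*, the neurotensin precursor of N cells (chromosome 10, 102481756 to 102490418), had the opposite order, at 0.0689 FPKM in GFP+ cells, against 6.62 FPKM in GFP- cells. Its difference was -2.83 and its GFP- to GFP+ ratio 96.2, and about 4 fragments lay behind the GFP+ value (interval 1.09 to 10.2). Of the other peptides of this group, *Grp* (gastrin-releasing peptide) was at 0.0250 FPKM in GFP+ and 0 in GFP-, *Tac2* (neurokinin B) was at 0.0759 FPKM in GFP+ cells, against 0.0763 FPKM in GFP- cells, and *Nmu* and *Nms* (neuromedins U and S) were listed at 0 in both.

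Marker genes of several cell types were read from the same libraries, and the lists differed in direction. All 6 enterochromaffin markers (*Tph1*, *Slc18a1*, *Ddc*, *Tac1*, *Lmx1a* and *Gch1*) were at least 4-fold higher, with a summed level of 4911 FPKM in GFP+ cells, against 190 FPKM in GFP- cells. Of 9 markers of other enteroendocrine cell types of at least 1 FPKM, 3 (*Gcg*, *Sst* and *Ghrl*) were at least 4-fold lower and *Etv1* was at least 4-fold higher, with sums of 186 and 576 FPKM in GFP+ and GFP-. None of these was at 0 in either library. Of 7 genes of enteric neurons and glia, 5 were below 1 FPKM in both libraries and so could not reach the size rule. Neither of the other 2 passed the size rule. *Tubb3* was at 4.58 FPKM in GFP+ cells, against 1.51 FPKM in GFP- cells. *Gfap* was at 1.01 FPKM in GFP+ cells, against 0.00642 FPKM in GFP- cells. Its ratio without the pseudocount was 157, and the pseudocount held its difference to 0.998. The 7 genes summed to 6.33 and 1.67 FPKM in GFP+ and GFP-. Vimentin (*Vim*), a mesenchymal marker, was at 237 FPKM in GFP+ cells, against 4.90 FPKM in GFP- cells, while *Col1a1* and *Col3a1* were at 1.56 and 1.61 FPKM in GFP+ and 0.0106 and 0.00593 FPKM in GFP-. *Vim* was the one of 3 mesenchymal genes of at least 1 FPKM that passed the size rule, and the 7 with an estimate summed to 242 FPKM in GFP+ cells, against 5.10 FPKM in GFP- cells, with *Dcn* and *Lum* at 0 in GFP-. Of 3 immune genes of at least 1 FPKM, *Lyz2*, at 6.61 FPKM in GFP+ cells, against 0.858 FPKM in GFP- cells, was at least 4-fold higher and none was at least 4-fold lower. The immune genes summed to 9.61 FPKM in GFP+ cells, against 2.54 FPKM in GFP- cells, with *Ptprc* (CD45) at 0.0224 FPKM in both and *Cd3e* at 0 in GFP+. Of the endothelial genes only *Pecam1* reached 1 FPKM, at 10.4 FPKM in GFP+ cells, against 0.187 FPKM in GFP- cells, and passed the size rule. The 4 endothelial genes summed to 10.9 FPKM in GFP+ cells, against 0.391 FPKM in GFP- cells, with *Kdr* at 0 in GFP+ and *Cdh5* at 0 in GFP-. The part of these cells in the differences of the precursors was not tested. All 10 Paneth cell genes were at least 4-fold lower, as were 2 of 6 stem cell genes and 2 of 7 tuft cell genes that reached 1 FPKM. With the median ratio set to 1 these counts were 9, 1 and 1, and at a common total 9, 1 and 2. For scale, *Tac1*, the substance P precursor, was at 2200 FPKM in GFP+, against 65.8 FPKM for *Guca2b*, the highest precursor there.

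**Figure D2:**
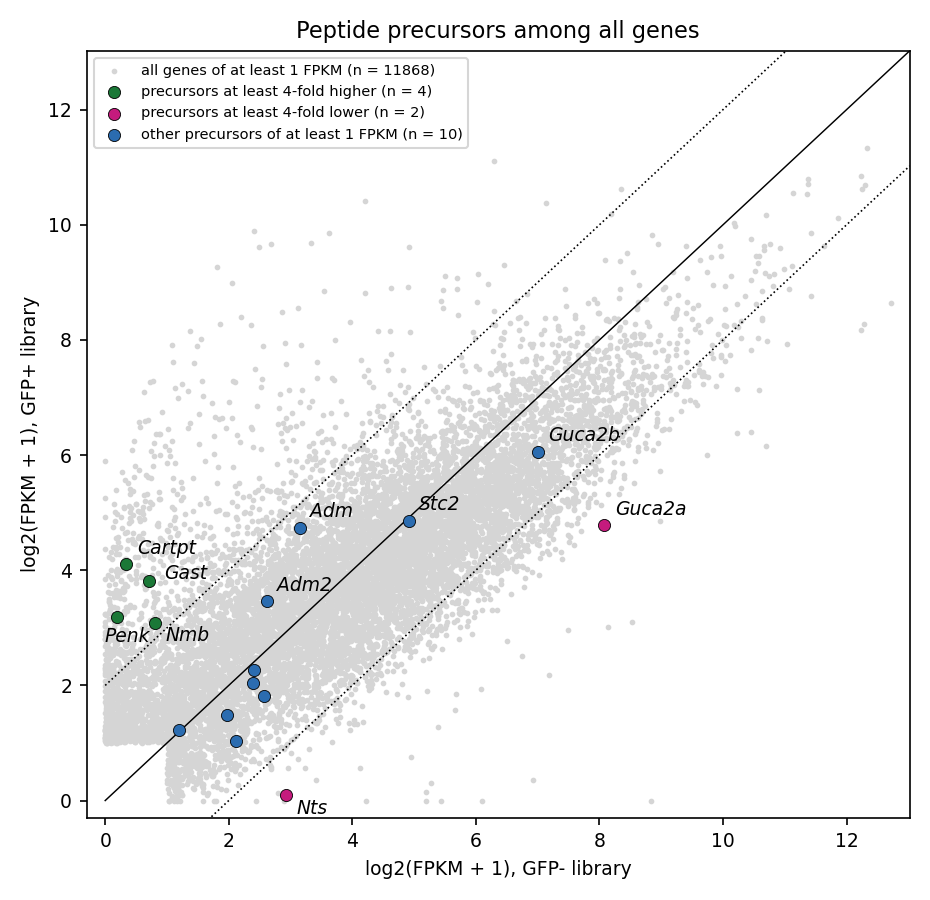
Level in GFP+ (vertical axis, log2(FPKM + 1)) against level in GFP- (horizontal axis) for the 11868 genes past the filter of 1 FPKM in grey, with the 16 precursors in colour; the solid line marks equal levels and the dotted lines a 4-fold difference. *Cartpt*, *Gast*, *Penk* and *Nmb* lie above the upper dotted line at the left edge, and *Guca2a* and *Nts* lie below the lower one.

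The other 10 precursors of at least 1 FPKM did not pass the size rule. In the calcitonin and adrenomedullin family, *Adm* (adrenomedullin, a vasodilator also made by epithelia) was at 25.7 FPKM in GFP+ cells, against 7.87 FPKM in GFP- cells. Its difference of 1.59 lay below the size rule as deposited and above it when the libraries were rescaled, at 2.07 with the median ratio of well-expressed genes set to 1 and at 2.24 with both libraries at a common total. *Adm2* (intermedin) was at 10.0 FPKM in GFP+ cells, against 5.15 FPKM in GFP- cells, with a difference of 0.84. The calcitonin genes were lower in level and differed in order. *Calcb*, which encodes beta-CGRP, was at 0.927 FPKM in GFP+, about 40 fragments, and listed at 0 in GFP-. *Calca*, which encodes calcitonin and alpha-CGRP, was listed at 0 in GFP+ and was at 0.207 FPKM in GFP-, about 9 fragments. The listed loci of these neighbours are 82285 bases apart.

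The stanniocalcins and *Pthlh* act on calcium and phosphate transport or on bone and epithelial growth. *Stc2* was the third most abundant precursor in the sum of both libraries after the guanylins, at 28.0 FPKM in GFP+ cells, against 29.2 FPKM in GFP- cells, a difference of -0.06. *Stc1* was at 0.511 FPKM in GFP+ cells, against 0.0859 FPKM in GFP- cells, about 128 and 21 fragments. *Pthlh*, parathyroid hormone-like peptide, was at 1.06 FPKM in GFP+ cells, against 3.35 FPKM in GFP- cells, a difference of -1.08.

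The endothelins are vasoconstrictor peptides that epithelia also secrete. *Edn1* was at 2.50 FPKM in GFP+ cells, against 4.97 FPKM in GFP- cells, with a difference of -0.77. *Edn2* was at 3.10 FPKM in GFP+ cells, against 4.25 FPKM in GFP- cells, with a difference of -0.36. *Edn3* was at 0.116 FPKM in GFP+ cells, against 0.603 FPKM in GFP- cells, about 21 and 109 fragments. All 3 had the lower value in GFP+ as deposited, and none passed the size rule. *Edn3*, below 1 FPKM in both libraries, could not reach it. The difference of *Edn2* turned above 0 under both other scalings, at 0.04 and 0.15.

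Of the remaining genes above 1 FPKM, *Agt*, the precursor of angiotensin, was at 1.79 FPKM in GFP+ cells, against 2.92 FPKM in GFP- cells, a difference of -0.49. *Apln*, the apelin precursor named at the threshold, had a difference of 0.03. *Kiss1*, known as the hypothalamic kisspeptin gene that starts puberty, was at 3.81 FPKM in GFP+ cells, against 4.30 FPKM in GFP- cells. Its difference of -0.14 turned above 0 under both other scalings, as did that of *Stc2*. None of these 3 genes stood apart between the libraries by the size rule.

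**Figure D3:**
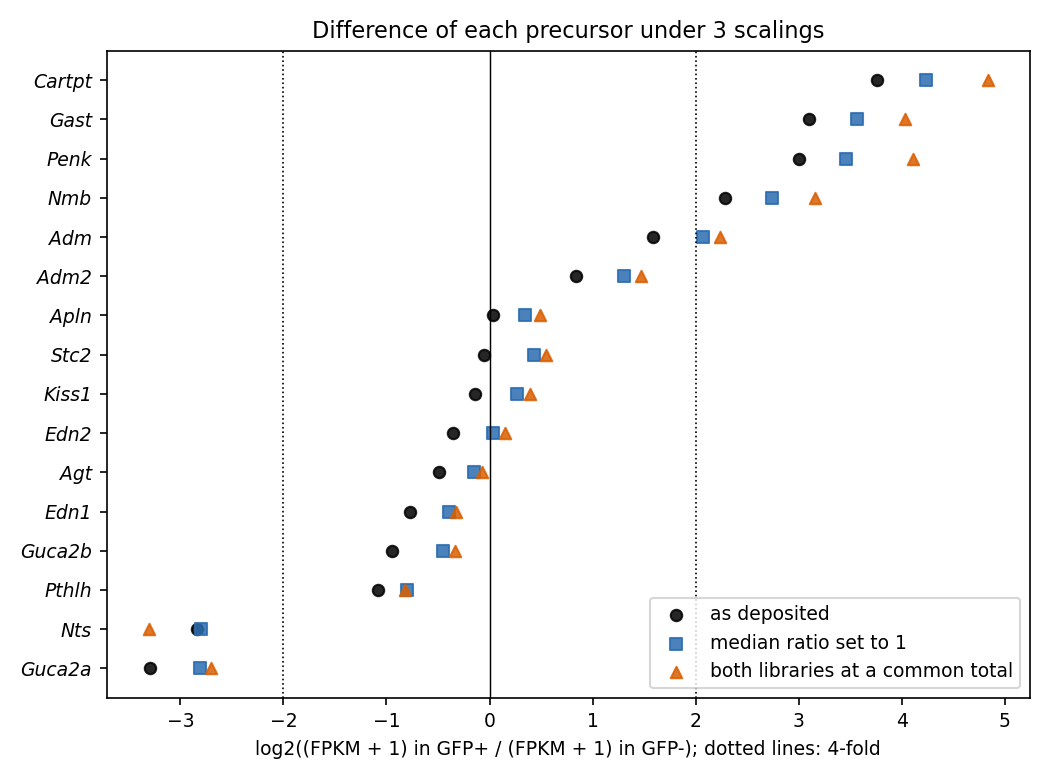
Difference of each of the 16 precursors as log2((FPKM + 1) in GFP+ / (FPKM + 1) in GFP-), as deposited (circles), with the median ratio of well-expressed genes set to 1 (squares) and with both libraries at a common total (triangles); dotted lines mark 4-fold. *Adm* crosses the upper line under both rescalings, and *Edn2*, *Kiss1* and *Stc2* cross 0.

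The median log2 ratio of the 5563 well-expressed genes (10 FPKM or more in each library) was -0.50. When that median was moved to 0, *Adm* joined the 4 higher precursors and the same 2 were lower, against 10.8% of all genes higher and 1.51% lower. At a common total the counts were again 5 and 2, against 13.4% and 1.20% of all genes. With a pseudocount of 5 in place of 1, *Cartpt* and *Guca2a* alone passed the size rule, 1 in each direction, against 2.97% of all genes higher and 2.65% lower. The counts stayed at 4 and 2 with a pseudocount of 0.1, against 12.8% and 6.82% of all genes. They were also 4 and 2 without the filter, against 3.57% and 2.32%, and with a filter of 5 FPKM, against 8.16% and 5.82%. Neither change of the filter could move the precursor counts. Genes below 1 FPKM in both libraries cannot reach the size rule, and each called precursor exceeded 5 FPKM in its higher library.

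The 21 precursors above 0 and below 1 FPKM are read best in estimated fragments. Of these, 16 had the higher FPKM in GFP+ and 5 in GFP-, and *Tac2*, nearly equal in both, changed sides under either other scaling. In GFP- 9 of them were listed at 0, and in GFP+ 2 were. No share over all genes was counted for these sides and zeros. By the intervals given below, genes in this range leaned to GFP+ in general. *Agrp*, a hypothalamic feeding peptide, was at 0.859 FPKM in GFP+ cells, against 0.162 FPKM in GFP- cells, about 21 and 4 fragments. *Adcyap1*, the PACAP precursor, was at 0.121 FPKM in GFP+ cells, against 0.0172 FPKM in GFP- cells, about 24 and 3 fragments. *Nppc*, the C-type natriuretic peptide, was at 0.243 FPKM in GFP+ cells, against 0.0203 FPKM in GFP- cells, about 12 and 1 fragments. The Poisson intervals, which cover counting error only, lay apart with GFP+ higher for 7 of the 21 (*Adcyap1*, *Agrp*, *Calcb*, *Nppc*, *Pnoc*, *Pomc* and *Stc1*) and with GFP- higher for 2 (*Calca* and *Edn3*), and overlapped for the other 12. Among 4758 genes in the same range of levels they lay apart for 27% with GFP+ higher and for 8.49% with GFP- higher.

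Others rested on a handful of fragments. *Crh*, *Oxt* and *Gnrh1*, the releasing hormone of corticotropin, oxytocin and the releasing hormone of gonadotropins, each had about 1 fragment in GFP+ and 0 in GFP-. *Npw*, *Ucn* and *Grp* each had about 2 in GFP+ and 0 in GFP-, and *Nppb*, B-type natriuretic peptide, about 4 and 0. *Trh* had about 3 in GFP+ and 1 in GFP-, and *Gal*, the galanin precursor, about 2 in GFP+ and 6 in GFP-. At these counts no difference between the libraries was detectable. The row of *Ucn* (urocortin) covers a merged locus of 415703 bases, and its deposited upper bound of 25.3 FPKM in GFP+ was 202 times its FPKM of 0.125.

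**Figure D4:**
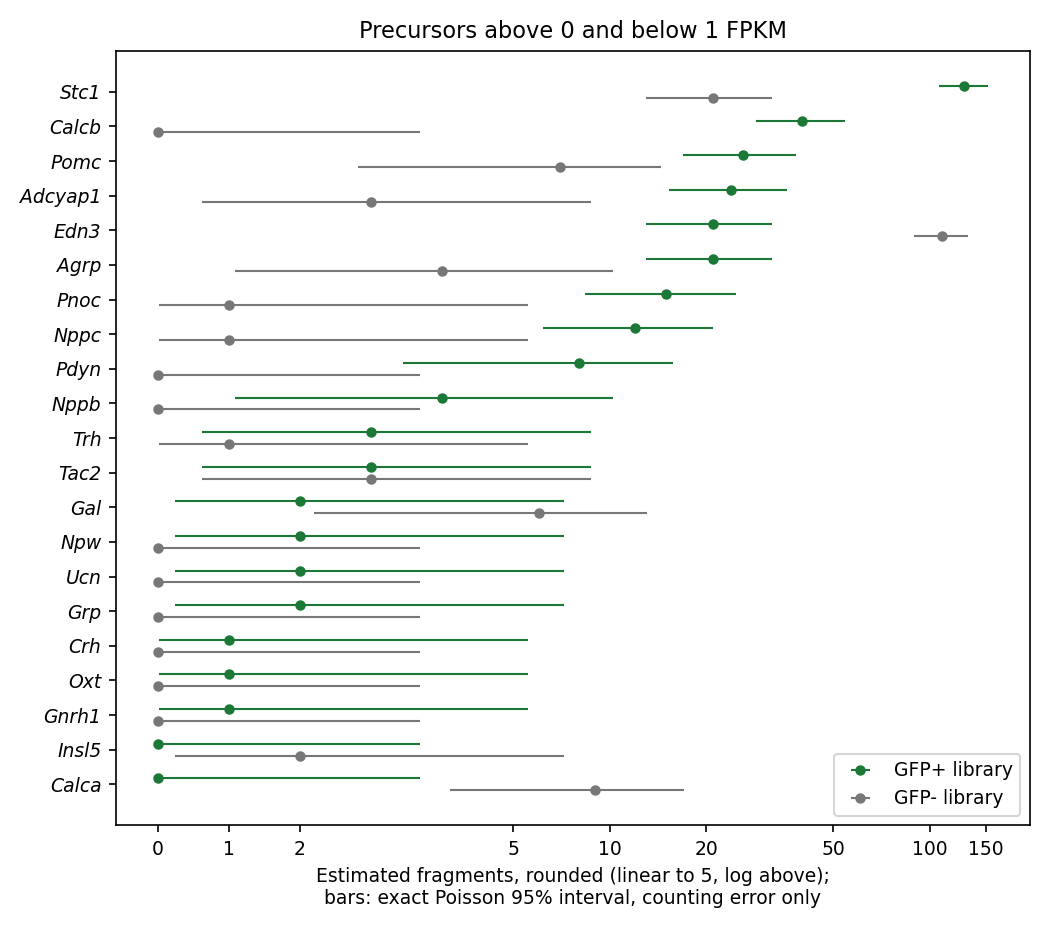
Estimated fragments of the 21 precursors above 0 and below 1 FPKM in each library (linear scale to 5, log scale above), with exact Poisson 95% intervals for counting error only. *Stc1*, *Calcb*, *Pomc* and *Adcyap1* lie further right in GFP+ and *Edn3* and *Calca* further right in GFP-. The lower rows, apart from *Calca*, rest on 0 to 6 fragments.

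The precursors listed at 0 in both libraries were *Avp*, *Cort*, *Hcrt*, *Nms*, *Nmu*, *Npb*, *Nppa*, *Npy*, *Pmch*, *Ppy*, *Ucn2* and *Vip*. They include *Vip* and *Npy*, peptides of enteric neurons, *Avp* and *Hcrt*, hypothalamic peptides, and *Nppa*, the atrial natriuretic peptide of the heart. A count of 0 allows up to 3 fragments as a one-sided limit (the two-sided Poisson interval of the plot of low precursors ends at 3.69), which for these transcripts is between 0.0375 and 0.227 FPKM, the lowest limit being that of *Vip* and the highest that of *Ppy*. The rows of *Nmu* and *Pmch* cover merged loci of 285640 and 55870 bases, so their zeros are less certain. By role, the corticotropin-releasing factor family, the natriuretic peptides, VIP and PACAP, and the posterior pituitary hormones had no member at 1 FPKM. Of the 12 pituitary-regulating and feeding peptides, 2 reached it (*Cartpt* and *Kiss1*) and 5 were at 0 in both. Of the 4 pairs of members with loci under 100000 bases apart, *Oxt* and *Avp* and *Nppb* and *Nppa* were at or near 0 together, and the other 2 pairs are those of the guanylins and of *Calca* and *Calcb*.

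Receptors for these peptides, from a list of 67 genes, were measured in the same libraries. *Galr3* was not used here, since no symbol matched it. Of the other 66, 13 reached 1 FPKM and 53 did not. Of the 13, 6 passed the size rule as higher in GFP+ and none as lower, against 7.09% and 4.59% of all genes, with a median difference of 1.25, against -0.12 for all genes. At a common total *Crhr2*, a urocortin receptor at 1.40 FPKM in GFP+ cells and 0.00705 FPKM in GFP- cells, passed too, with 2.13. Of these 6, *Galr1*, *Npy1r*, *Sstr1* and *Sstr2* were below 1 FPKM in GFP- and so passed the filter through GFP+. Among the other receptors, *Crhr2*, *Kiss1r* and *Sstr3* did so too. The filter fixes the sign of all these differences, and the median of 1.25, itself the value of *Crhr2*, is partly set by it. *Sstr5* and *Sstr1*, receptors that bind cortistatin and somatostatin, were at 47.9 and 22.4 FPKM in GFP+ cells, against 1.13 and 0.345 FPKM in GFP- cells. *Sstr2* was at 6.63 FPKM in GFP+ cells, against 0.785 FPKM in GFP- cells. *Ramp3*, a partner protein of the adrenomedullin receptor, was at 33.1 FPKM in GFP+ cells, against 1.11 FPKM in GFP- cells. The galanin receptor *Galr1* was at 11.5 FPKM in GFP+ cells, against 0.157 FPKM in GFP- cells, and the neuropeptide Y receptor *Npy1r* at 6.79 FPKM in GFP+ cells, against 0.0803 FPKM in GFP- cells. Of the ligand genes among the precursors described here, *Cort* and *Npy* were at 0 in both libraries, and *Gal* was below 0.2 FPKM in both. The somatostatin gene *Sst*, counted above as a marker of other enteroendocrine cell types, was at 0.236 FPKM in GFP+ cells, against 37.6 FPKM in GFP- cells. The peptide YY gene *Pyy*, from the same marker list, was at 1.06 FPKM in GFP+ cells, against 1.93 FPKM in GFP- cells.

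*Gucy2c*, the guanylate cyclase that the guanylins activate, was at 185 FPKM in GFP+ cells, against 83.1 FPKM in GFP- cells, a difference of 1.14 on the log2 scale, while both guanylins had the higher level in GFP-. *Calcrl*, the receptor that *Ramp3* joins, was at 0.0879 FPKM in GFP+ cells, against 0.0738 FPKM in GFP- cells. The neuromedin B receptor *Nmbr* and the gastrin receptor *Cckbr* were listed at 0 in both libraries. The enkephalin receptors *Oprm1* and *Oprd1* were at 0.0265 and 0 FPKM in GFP+ cells, against 0 and 0.0628 FPKM in GFP- cells. For neurotensin, *Ntsr1* was at 0 in GFP+ and 0.00431 FPKM in GFP-, *Ntsr2* was at 0.0982 FPKM in GFP+ cells, against 0.0123 FPKM in GFP- cells, and the sorting receptor *Sort1* was at 15.2 FPKM in GFP+ cells, against 10.9 FPKM in GFP- cells. *Kiss1r* was at 1.39 FPKM in GFP+ cells, against 0.706 FPKM in GFP- cells. *Vipr1*, the epithelial VIP receptor, was at 14.3 FPKM in GFP+ cells, against 40.6 FPKM in GFP- cells, a difference of -1.44, while *Vip* was at 0 in both. The receptors *Ednra*, *Ednrb*, *Aplnr*, *Pth1r*, *Agtr1a*, *Agtr1b* and *Agtr2* were below 0.2 FPKM in both libraries.

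**Figure D5:**
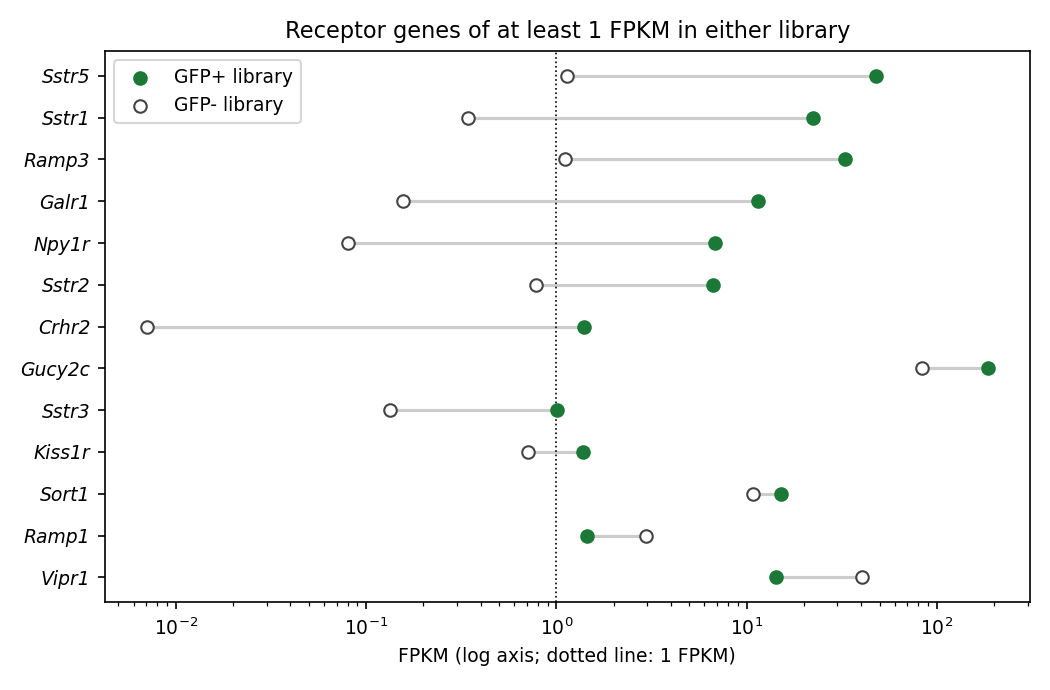
FPKM (log axis) of the 13 receptor genes that reached 1 FPKM, ordered by their log2 difference, with 1 value per library (filled, GFP+; open, GFP-). *Sstr5*, *Sstr1*, *Ramp3*, *Galr1*, *Npy1r* and *Sstr2* lie to the right in GFP+, and *Vipr1* and *Ramp1* to the right in GFP-.

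Of 22 enzymes and helper proteins of peptide processing and breakdown that reached 1 FPKM, 7 passed the size rule as higher in GFP+ and none as lower, against 7.09% and 4.59% of all genes, with a median difference of 0.70. Of these 7, *Pam*, *Pcsk1n* and *Pcsk2* were below 1 FPKM in GFP- and so passed the filter through GFP+. *Dpp4*, a peptidase that cuts gut hormones, passed it at 2.39 and 2.53 under the other scalings only. The prohormone convertase *Pcsk1* was at 930 FPKM in GFP+ cells, against 11.3 FPKM in GFP- cells, and the carboxypeptidase *Cpe* was at 782 FPKM in GFP+ cells, against 29.2 FPKM in GFP- cells. *Scg5*, a helper protein of the convertase *Pcsk2*, was at 144 FPKM in GFP+ cells, against 4.77 FPKM in GFP- cells, and *Pcsk2* itself at 4.52 FPKM in GFP+ cells, against 0.0211 FPKM in GFP- cells. *Pcsk1n*, which encodes an inhibitor of the *Pcsk1* product, was at 26.3 FPKM in GFP+ cells, against 0.816 FPKM in GFP- cells. *Pam*, which amidates peptides such as gastrin, adrenomedullin and neuromedin B, was at 16.9 FPKM in GFP+ cells, against 0.848 FPKM in GFP- cells. The endothelin-converting enzymes differed in order, with *Ece1* at 122 FPKM in GFP+ cells, against 13.2 FPKM in GFP- cells, and *Ece2* at 7.33 FPKM in GFP+ cells, against 30.5 FPKM in GFP- cells, a difference of -1.92 that did not pass the size rule.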

How the data were processed

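Polyadenylated RNA from 2 sorted fractions was turned into cDNA with a SMARTer low-input kit, 1 library per fraction, per the labels' protocols. The deposited values are FPKM with Cuffdiff confidence bounds, per the file headers; the submitters' processing notes list TopHat2 0.7, Cufflinks, Cuffdiff, FastQC and the mm10 build. Annotation, scaling, strand use and the treatment of multiply mapped reads: not given in the sources used here.

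FPKM was summed per symbol with Python 3.11.15 and pandas 2.3.3. The 5 rows without an estimate in GFP+ were left out, and none is a precursor. Genes that reached 1 FPKM in a library were compared on log2(FPKM + 1) with a size rule of 2. No test between fractions was possible. The peptide genes and lists were chosen with earlier results of these data known. All 49 peptide genes are accounted for. Named are receptors of those at 1 FPKM and, of the others, the 6 receptors and 6 enzymes with the largest differences. *Crhr2*, *Sstr3*, *Pcsk2*, *Dpp4* and *Ece2* were added after their values were seen.

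The files give no depth. Low FPKM values came in steps: for genes of 1200 to 9000 bases, 1 FPKM per kilobase beyond the first 280 bases stood for 64.0 fragments in GFP+ and 63.8 in GFP-, and 77.5% of 801 and 78.7% of 938 values below 4.5 fragments lay within 0.1 of a whole number (20% for even spacing). The unit was chosen on the same values, with transcript lengths from GENCODE M21 (the longest, where a gene has several). Fragment counts are approximate, more so for short transcripts. Their intervals were also compared between libraries for all single-row genes above 0 and below 1 FPKM with a transcript over 400 bases, a comparison added after the data were seen. The search and the size rule were tested on simulated data. Some genes of the fixed marker lists were left out of the lists' counts and are not reported here.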

Additional observations from a re-analysis of the deposited data

How the results depend on the processing

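No paired analysis was possible because each fraction has 1 library. The counts of precursors at least 4-fold higher and lower were 4 and 2 as deposited, with a pseudocount of 0.1, without a filter, with a filter of 5 FPKM and with the largest row per symbol. The settings of filter and row could not move these counts. Genes below 1 FPKM in both libraries cannot reach the size rule, each called precursor exceeded 5 FPKM in its higher library, and each precursor has 1 row. With a pseudocount of 5 the counts were 1 and 1: *Gast*, *Nmb* and *Penk* had differences of 1.68, 1.12 and 1.35 and *Nts* one of -1.20. The cause is the pseudocount itself, which shrinks differences of low genes. The median difference of the precursors was -0.12 and -0.065 at pseudocounts of 0.1 and 5, against -0.14 and -0.080 for all genes. Without a filter it was 0, as for all genes. Over the 10 precursors of at least 5 FPKM it was 1.22, against -0.27. The 4 higher genes passed that filter through GFP+ alone, and *Nts* through GFP- alone. After the median ratio was set to 1 the median was 0.39, against 0.35 for all genes, and at a common total 0.72, against 0.50. Under these scalings *Edn2* was at 0.037 and 0.15, *Kiss1* at 0.27 and 0.40, and *Stc2* at 0.43 and 0.55, all above 0. All genes at least 4-fold higher numbered 1524 and 353 at pseudocounts of 0.1 and 5, and 1317 and 1717 under the scalings. Those at least 4-fold lower numbered 315 at a pseudocount of 5, and 184 and 153 under the scalings. With 1 library per fraction, none of these settings replaces a replicate.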
